A study of Bos taurus with 27 samples.

Results

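The contractile apparatus of smooth muscle was followed in newborn calf colon through 8 genes, MYH11, MYLK, ACTG2, ACTA2, TPM2, CNN1, TAGLN and DES, out of 24616 genes in the count table. The genes were taken by name because their products build or switch on the smooth muscle filaments, and the rule uses no measured value, although they were picked with earlier results of these data known. Each matched 1 Ensembl gene. All 8 passed the filter on low counts that the tests used (a CPM, the count scaled to a common library total, of 1 or more in at least 5 of the 9 calves of every treatment), as did 13943 genes in all.

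Colon RNA was sequenced from 27 male Holstein calves euthanized at 51 h of age. The first colostrum meal was given immediately after birth (0 h, TRT0), at 6 h (TRT6) or at 12 h (TRT12), with 9 calves in each treatment, and the comparison asks whether that delay altered gene expression in the colon. Within each treatment 4 calves were born to primiparous heifers (H) and 5 to multiparous cows (C), which gives the groups TRT0_H, TRT0_C, TRT6_H, TRT6_C, TRT12_H and TRT12_C. The parity of each dam came from the sample list of the study and not from the labels of the samples. Every calf was removed from its dam at birth, received the same pooled, pasteurized colostrum by tube and was then fed milk replacer, so no group went without colostrum. A 5-cm segment of colon was taken from each calf, and each sample is a separate calf.

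Totals ranged from 1163791 to 4202593 counts per calf. The libraries were run in 3 sequencing lanes, called lanes 1, 2 and 3 here, of 11, 11 and 5 calves, and by the labels lanes 1 and 2 belonged to 1 sequencing run and lane 3 to another. Lane 3 held no TRT0_H, TRT6_H or TRT12_C calf, and lane 1 held no TRT0_C calf. Markers of colon epithelium were present in every calf, with EPCAM, the adhesion molecule of epithelial cells, between 294 and 687 CPM. The calf least like the rest, calf 4117 of TRT12_H, had a median correlation of 0.8923 with the other calves over all genes tested, and the correlations between the contractile genes are given with and without it.

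The outer wall of the colon is made of smooth muscle layers, whose slow waves of contraction mix and move the contents of the gut. In a smooth muscle cell, a rise in calcium activates myosin light chain kinase, the product of MYLK, which phosphorylates the light chains of smooth muscle myosin so that its heavy chain, the product of MYH11, can pull on actin filaments. ACTG2 encodes the gamma smooth muscle actin that is typical of visceral muscle and ACTA2 the alpha smooth muscle actin best known from blood vessels, while tropomyosin 2 (TPM2), calponin 1 (CNN1) and transgelin (TAGLN) lie along these actin filaments and desmin (DES) forms the intermediate filaments that tie the contractile units together.

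Together the 8 genes took 1.12% of all counts on average, and this share ranged from 0.759% to 1.55% between calves. Their summed level was 11191 ± 2375 CPM (SD, n = 27) and spanned 7588 to 15492 CPM, a 2.04-fold range. The lowest sum was that of calf 4108 of TRT0_C and the highest that of calf 4158 of TRT12_C. The TRT0 calves had a sum of 11519 ± 2070 CPM, the TRT6 calves 11126 ± 2850 and the TRT12 calves 10930 ± 2380 (SD, 9 calves a treatment), so the means lay closer together than the calves of any treatment did. Since the RNA came from ground colon tissue and not from separated cells, fewer smooth muscle cells and less of these RNAs per cell cannot be told apart.

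Among the motor protein and its kinase, MYH11 was at 2445, 3538 and 4342 CPM in the lowest, median and highest calf of TRT0. The corresponding values were 2412, 3149 and 4995 CPM in TRT6 and 2323, 3230 and 4438 CPM in TRT12. The treatments overlapped almost fully, and both the lowest and the highest calf of all came from calves of multiparous cows, calf 4159 of TRT12_C and calf 4151 of TRT6_C. Over all calves MYH11 was at 3476 ± 726 CPM (SD, n = 27). MYLK varied least of the 8 genes, with a coefficient of variation of 16.4% around a mean of 701 ± 115 CPM (SD, n = 27). It was at 580, 652 and 809 CPM in the lowest, median and highest calf of TRT0, at 546, 680 and 946 CPM in TRT6 and at 529, 696 and 886 CPM in TRT12. The extremes of MYLK belonged to the same calves as those of MYH11, calf 4159 at the low end and calf 4151 at the high end.

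Of the actins, the visceral ACTG2 was at 1635, 2319 and 3510 CPM in the lowest, median and highest calf of TRT0, at 1559, 2629 and 3556 CPM in TRT6 and at 1902, 2205 and 3644 CPM in TRT12. Every treatment thus held calves on both sides of the mean of 2456 ± 585 CPM (SD, n = 27). ACTA2 was at 720, 919 and 1412 CPM in TRT0, at 762, 935 and 1210 CPM in TRT6 and at 756, 872 and 1370 CPM in TRT12, in the same order. Its lowest calf, 4108 of TRT0_C, and its highest, 4124 of TRT0_H, had both been fed at 0 h. Actin genes are close copies of each other in their coding parts and the counting dropped reads that fitted several genes, so the level of either actin is uncertain by the reads they share with other actins.

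The 3 genes for proteins along the actin filament had similar spreads. TPM2, a tropomyosin that winds along the filament and steadies it, had its lowest, median and highest calf at 454, 704 and 865 CPM in TRT0, at 496, 610 and 928 CPM in TRT6 and at 519, 604 and 941 CPM in TRT12. CNN1, an actin-binding inhibitor of the myosin motor, was at 321, 637 and 799 CPM in TRT0, at 364, 507 and 842 CPM in TRT6 and at 443, 516 and 901 CPM in TRT12. TAGLN, an actin cross-linking protein used as an early marker of smooth muscle, was at 490, 960 and 1125 CPM in TRT0, at 598, 744 and 1423 CPM in TRT6 and at 666, 875 and 1274 CPM in TRT12. For TPM2, CNN1 and TAGLN alike the lowest calf was calf 4108 of TRT0_C, and the highest was calf 4158 of TRT12_C for TPM2 and CNN1 and calf 4140 of TRT6_C for TAGLN. TAGLN had the widest range between its extremes, 2.90-fold.

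The intermediate filament gene DES was at 944, 1573 and 2286 CPM in the lowest, median and highest calf of TRT0, at 924, 1311 and 2273 CPM in TRT6 and at 1051, 1175 and 2194 CPM in TRT12. Its median was the highest in TRT0, but the highest calves of the treatments, calf 4124, calf 4140 and calf 4158, lay close to each other and the ranges coincided. Its coefficient of variation, 27.5%, was the highest of the 8 genes. Those of the other 7 genes lay below the median of 27.1% over all genes tested. Over the 90 genes tested whose mean CPM was at least the lowest mean of the 8, the median was 20.5%, which MYLK alone lay below. Counting error at these depths corresponds to 1.22% to 3.03%.

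**Figure D1:**
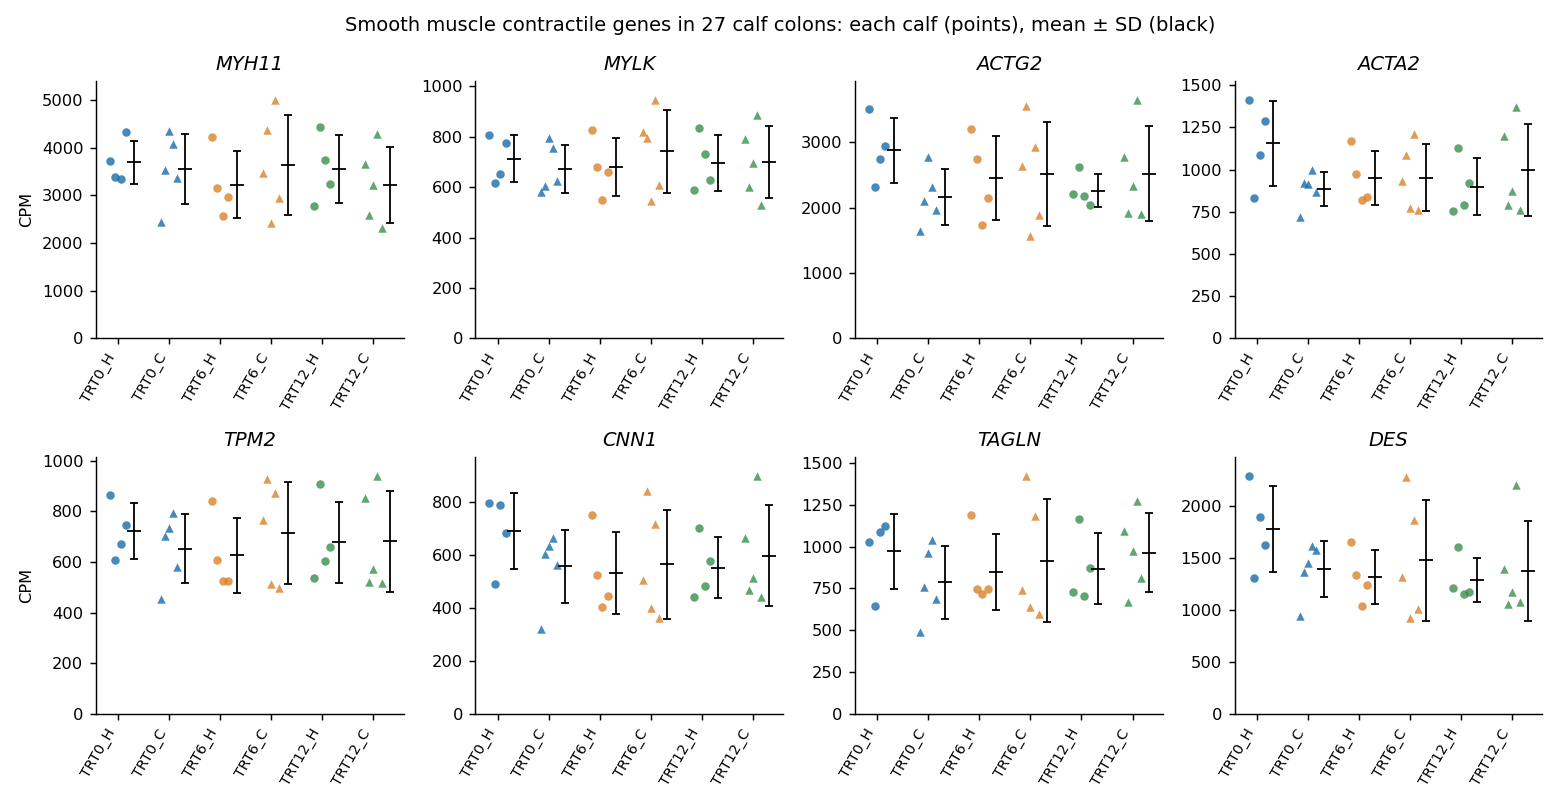
Level of each contractile gene in CPM (vertical axes, from 0) in each of the 27 calves, by treatment and dam parity on the horizontal axes, with circles for calves of heifers, triangles for calves of cows and black bars for the mean ± SD. The groups overlap in all 8 genes, and the mean of TRT0_H is the highest in every gene but MYLK. Overlap is not particular to these genes. Of all genes tested, 0.351% (TRT6_C vs. TRT0_C) to 2.3% (TRT6_H vs. TRT0_H) lack it in the contrasts within treatments and parities.

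Timing of the first colostrum meal was compared in 3 contrasts across parities. No contractile gene passed the threshold of the study in any of them, and neither did any other gene (an FDR, the Benjamini-Hochberg adjusted p of edgeR's quasi-likelihood test, of 0.10 or less and a fold change of 1.2 or more). The share of all genes tested that passed was 0.0% in each contrast. At an unadjusted p under 0.05, 0 of the 8 genes passed in TRT6 vs. TRT0, TRT12 vs. TRT0 and TRT12 vs. TRT6, against 3.14%, 9.37% and 3.14% of all genes tested. The likelihood ratio test of edgeR and DESeq2 called 0 of the 8 genes as well. Of all 13943 genes tested, the likelihood ratio test called 0 in each of these contrasts. DESeq2 called 51 in TRT12 vs. TRT0, 48 higher and 3 lower, and 0 in the other contrasts across treatments.

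In TRT6 vs. TRT0 the fitted log2 fold changes lay between -0.11 for CNN1 and 0.086 for MYLK, with standard errors of 0.13 to 0.19. MYH11 differed by -0.026 (95% interval -0.34 to 0.29), ACTG2 by 0.06 (-0.29 to 0.41), ACTA2 by -0.031 (-0.31 to 0.25), TPM2 by 0.029 (-0.29 to 0.34), TAGLN by 0.078 (-0.3 to 0.46) and DES by -0.092 (-0.45 to 0.26). The fitted values of 4 genes were above 0 and those of the other 4 below. All 8 intervals stayed within folds of 0.72 to 1.37. Each is a 95% interval for a single gene, not adjusted over the 8 genes, so larger differences are not excluded.

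In TRT12 vs. TRT0 the values ran from -0.21 for DES to 0.095 for TAGLN. DES, at 1335 ± 365 CPM in TRT12 and 1562 ± 377 in TRT0 (SD, n = 9 each), had the largest difference, and 2 of the 9 TRT12 calves lay above the TRT0 median. Its interval of -0.57 to 0.14 included 0 and its adjusted p was 0.751 in edgeR. MYH11 differed by -0.099 (-0.41 to 0.22), MYLK by 0.028 (-0.23 to 0.29), ACTG2 by -0.034 (-0.39 to 0.32), ACTA2 by -0.056 (-0.34 to 0.23), TPM2 by -0.0018 (-0.32 to 0.31) and CNN1 by -0.081 (-0.45 to 0.29). The intervals stayed within folds of 0.674 to 1.39. The median log2 fold change was -0.045 over the 8 genes and -0.0039 over all genes tested.

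TRT12 vs. TRT6 gave log2 fold changes of -0.12 for DES to 0.026 for CNN1, with intervals from -0.48 to 0.39. These 3 contrasts share calves, TRT0 standing in both of the first 2, so their values are not independent of each other. Treatment accounted for a median of 1.25% of the variance of log2 CPM over the 8 genes, from 0.0127% for TPM2 to 5.17% for DES, and for a median of 6.06% over all genes tested.

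**Figure D2:**
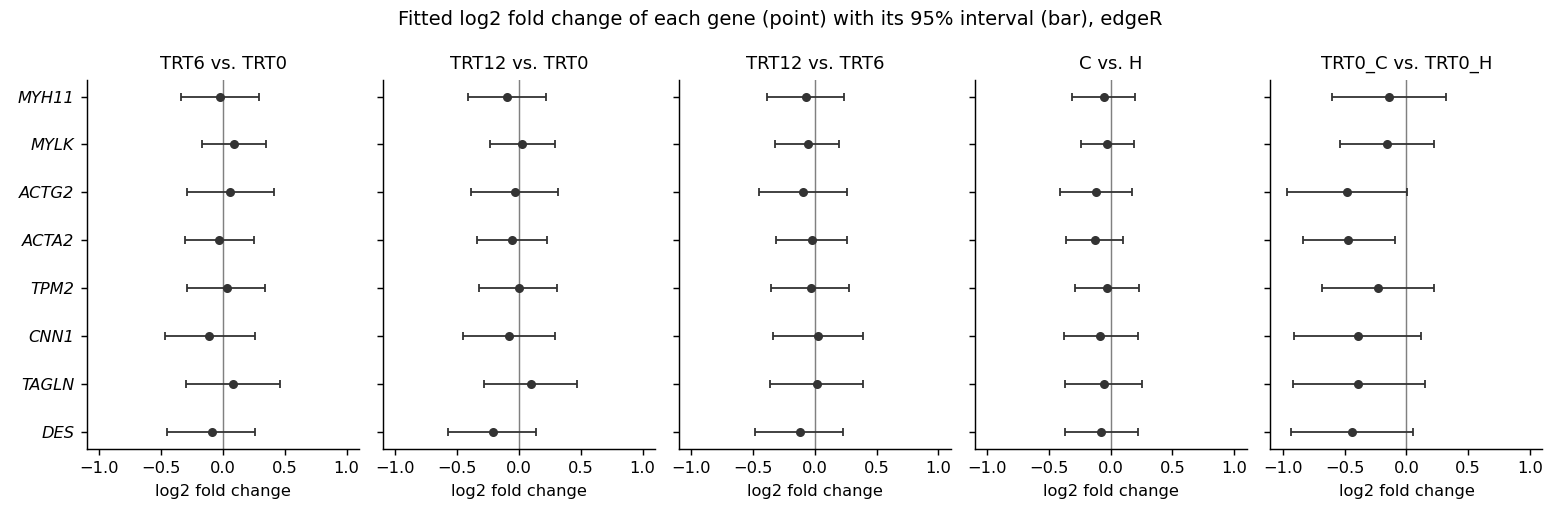
Fitted log2 fold change (horizontal axes) of each contractile gene in the contrasts across parities and in TRT0_C vs. TRT0_H, with edgeR estimates as points, their 95% intervals as bars and grey lines at no difference. In the first 4 panels every interval spans 0, and in TRT0_C vs. TRT0_H that of ACTA2, -0.84 to -0.093, does not.

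Dam parity was compared over the treatments in C vs. H. The fitted levels were lower in calves of cows for all 8 genes, by log2 fold changes of -0.13 for ACTA2 to -0.028 for TPM2 and MYLK, and none passed, as 0.0% of all genes did. Without TMM scaling, which adjusts the library totals, TPM2 and MYLK turned to 0.018 and 0.019. The intervals ran from -0.41 to 0.25, or folds of 0.754 to 1.19, and 0 of 8 genes had an unadjusted p under 0.05 against 2.52% of all genes. Because the 8 genes rise and fall together between calves, as the correlations given further on show, 8 genes on one side are not 8 separate observations.

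Within treatments and parities 9 further contrasts were made, each of 4 or 5 calves a side. None of the 8 genes was called in any of them by edgeR's quasi-likelihood test, and 0.0% of all genes tested were called in each. The likelihood ratio test of edgeR called 0 to 2 of all genes tested in each and none of the 8. The study reported RGS2 or CCL14 as changed in some of these contrasts. TRT0_H had the highest mean of the 6 groups in 7 of the 8 genes, all but MYLK, which was highest in TRT6_C. Accordingly, the contrasts against TRT0_H, which share its 4 calves, had all 8 genes lower. The median log2 fold change of the 8 genes was -0.39 in TRT0_C vs. TRT0_H, -0.18 in TRT6_H vs. TRT0_H and -0.28 in TRT12_H vs. TRT0_H, beside -0.0035, 0.0023 and 0.0033 over all genes tested. The summed fibroblast markers, given with the other cell types further on, also had their highest median in TRT0_H, at 14209 CPM, with 11878 CPM in TRT0_C, 11594 in TRT6_H and 10224 in TRT12_H, and their part in these differences was not tested. Against TRT0_C, 8 of 8 genes were higher in TRT6_C and 7 of 8 in TRT12_C. The medians were 0.17 and 0.13, beside 0.012 and -0.0062 over all genes tested. Of 26 other smooth muscle genes, given further on, 22 were lower in TRT0_C than in TRT0_H, 19 in TRT6_H and 18 in TRT12_H. Against TRT0_C, 21 of the 26 were higher in TRT6_C and 15 in TRT12_C.

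ACTA2 was the one contractile gene with an unadjusted p under 0.05 in any contrast. In TRT0_H it was at 1412, 834, 1087 and 1286 CPM in the 4 calves, and in TRT0_C at 720, 919, 914, 999 and 870 CPM. All 5 TRT0_C calves lay below the TRT0_H median of 1187 CPM, although calf 4135 of TRT0_H, at 834 CPM, was below 4 of them. The fitted log2 fold change was -0.47 ± 0.18 (SE), a fold of 0.723, with an interval of -0.84 to -0.093. Its unadjusted p was 0.0161 and its adjusted p 1 in edgeR, so it did not pass, and 2.52% of all genes tested had an unadjusted p under 0.05 in this contrast. With sequencing lane in the model the log2 fold change was -0.46 and the unadjusted p 0.026 in edgeR, and without TMM factors they were -0.38 and 0.0519. In lane 2 alone, which held 2 TRT0_H and 3 TRT0_C calves, the values were 1412 and 1286 CPM against 919, 999 and 870 CPM.

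ACTA2 was at 756, 1126, 789 and 921 CPM in the TRT12_H calves, which puts all 4 below the TRT0_H median. In TRT12_H vs. TRT0_H its log2 fold change was -0.40 ± 0.19 (SE), with an interval of -0.80 to -0.0028 that barely cleared 0. The unadjusted p was 0.0485 and the adjusted p 1 in edgeR, in a contrast where 3.56% of all genes had an unadjusted p under 0.05. With lane in the model the value was -0.34 and the unadjusted p 0.106 in edgeR, and without TMM factors they were -0.36 and 0.08. The largest fitted differences from TRT0_H were those of DES in TRT12_H, -0.50 with an interval of -1.03 to 0.021, and of ACTG2 in TRT0_C, -0.48 with an interval of -0.97 to 0.0018. Both are given as values that did not pass any threshold.

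Whether the effect of treatment differed between parities was tested by the interaction of both in edgeR. None of the 8 genes passed at an adjusted p of 0.10, the lowest unadjusted p being 0.0666 for ACTA2 with an adjusted p of 0.999, and 0.00717% of all genes tested passed. The 6 groups together accounted for 25.2% of the variance of ACTA2 and 17.5% of that of ACTG2 but 5.48% of that of MYLK, beside a median of 16.7% over all genes tested.

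Calf to calf, the 8 genes rose and fell together. Calf 4108 of TRT0_C and calf 4144 of TRT6_C were each among the 5 lowest calves for all 8 genes. At the other end, calf 4158 of TRT12_C was among the 5 highest for 7 genes, calves 4140 and 4151 of TRT6_C for 6 each and calf 4124 of TRT0_H for 5. TRT6_C thus held calves from both ends of the range, with summed levels from 7763 to 15277 CPM, and calves of the extremes came from every treatment.

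**Figure D3:**
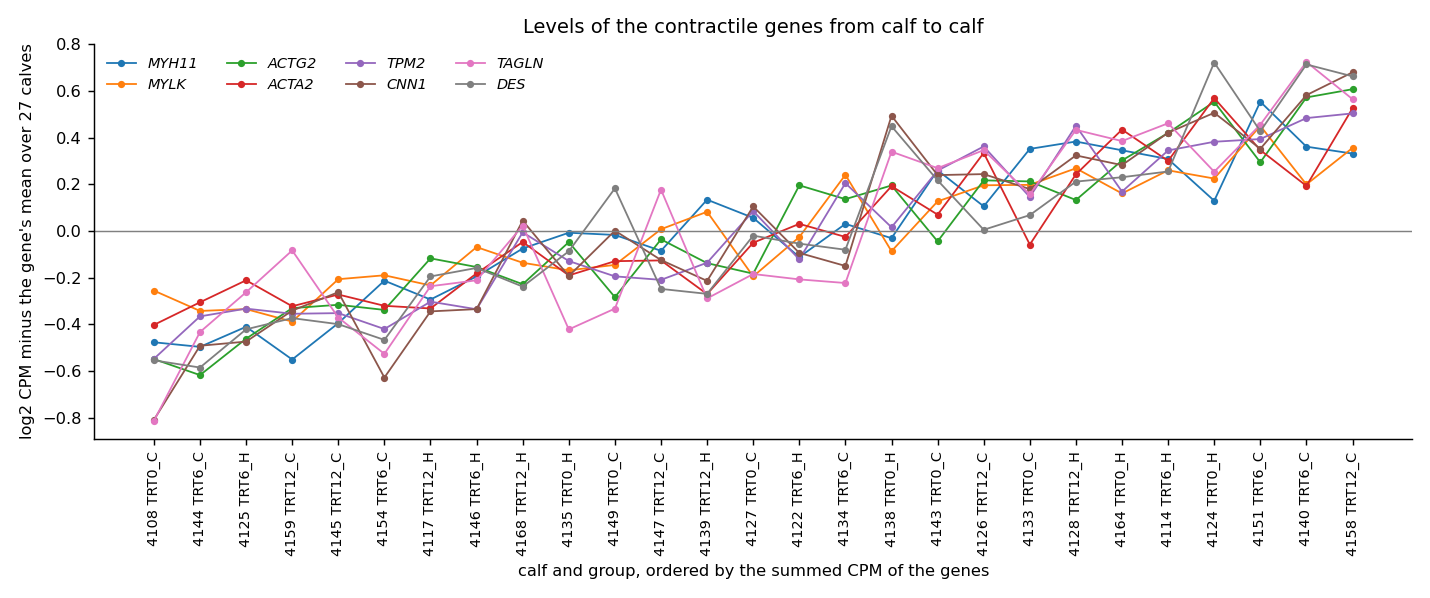
Log2 CPM of each contractile gene minus its own mean over the 27 calves (vertical axis), with calves ordered by the summed CPM of the 8 genes from 7588 in calf 4108 to 15492 in calf 4158 (horizontal axis). Each line is 1 gene, and the lines climb together from left to right with treatments mixed along the axis.

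Over the 27 calves the 28 pairs of contractile genes had Pearson correlations of log2 CPM (with TMM scaling) of 0.75 to 0.94, with a median of 0.87, and Spearman correlations of 0.72 to 0.92. All 28 passed a two-sided permutation test of 100000 resamples, with adjusted p over the 28 pairs of at most 2.0e-05 for Pearson's r and 6.0e-05 for Spearman's rho, where 1e-05 is the smallest unadjusted p the test can give. CNN1 and DES were the closest pair and DES and MYLK the loosest. Without the 2 calves farthest from the median of the gene on the x axis, r stayed between 0.66 and 0.92. Within lane 1 it was 0.60 to 0.98 and within lane 2 0.60 to 0.97, with medians of 0.88 and 0.87 (n = 11 calves each), and lane 3 held too few calves for a value. The median was also 0.87 without calf 4117.

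CNN1, the calponin, followed the other genes most closely, with a median r of 0.91 to the other 7. ACTG2 and TPM2 came next at 0.89 each, followed by ACTA2 at 0.87, DES at 0.86 and TAGLN at 0.85. The motor protein and its kinase followed least closely, MYH11 at 0.83 and MYLK at 0.82, and the differences between neighbours in this order were not tested. The first principal component of the 8 genes held 87.7% of their variance and the second 4.97%. As a description, the median r over the 97196653 pairs of genes tested was -0.0025, and 0.116% of those pairs reached the 0.75 of the loosest pair here. Over all calves r of the 8 genes with log2 total counts was 0.0039 to 0.22, and no adjusted permutation p over the 8 was below 0.739. Within lane 1 it was -0.25 to 0.034, and within lane 2 it was positive for all 8 genes, from 0.32 for ACTG2 to 0.68 for TPM2 (n = 11 calves each). The part of depth in the correlations between the genes was not tested.

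**Figure D4:**
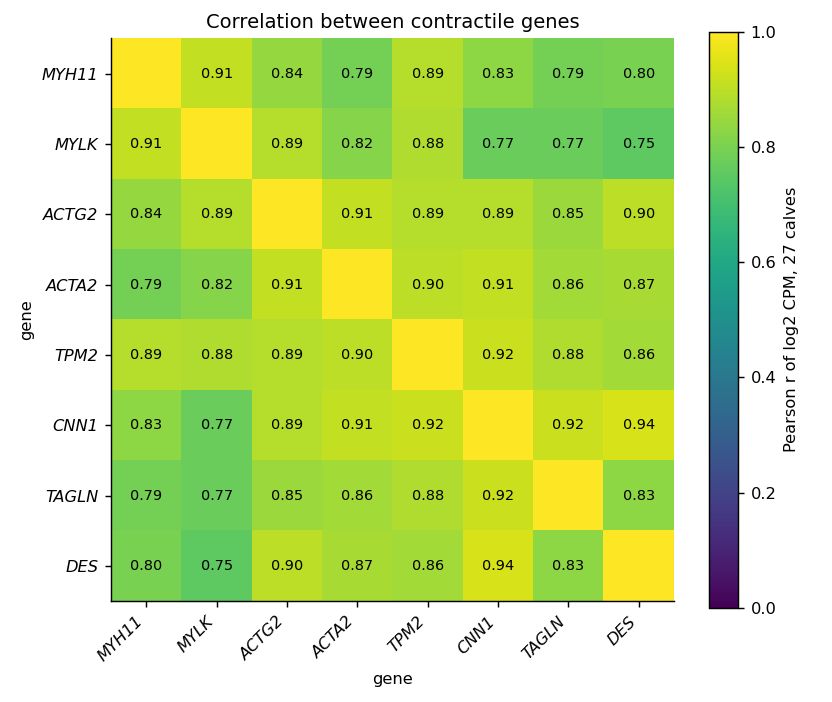
Pearson correlation of log2 CPM over 27 calves for each pair of contractile genes (both axes list the genes, and colour and printed number give r). Values run from 0.75 for DES with MYLK to 0.94 for CNN1 with DES.

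The ratio of 2 genes in the same calf is free of library scaling, and was used to see whether the composition of the apparatus shifted. Counts of ACTG2 were 2.03 to 3.27 times those of ACTA2, with a median of 2.49, without regard to transcript length. The lowest ratio was that of calf 4144 and the highest that of calf 4140, both of TRT6_C. Its log2 value averaged 1.30 ± 0.15 over the TRT0 calves, 1.35 ± 0.22 over the TRT6 calves and 1.34 ± 0.13 over the TRT12 calves (SD, 9 calves a treatment). No difference was larger than this spread, with 0.056 for TRT6 vs. TRT0, 0.038 for TRT12 vs. TRT0, -0.018 for TRT12 vs. TRT6 and -0.017 for C vs. H, and adjusted p of 0.833 in each of the 4 (two-sided permutation tests, exact between treatments and with 100000 resamples for parity). In lane 2 the TRT0, TRT6 and TRT12 calves averaged 1.22, 1.27 and 1.28, in lane 1 the averages were 1.4, 1.41 and 1.37, and in lane 3, of 1 or 2 calves each, 1.39, 1.31 and 1.35.

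Counts of DES were 0.308 times those of MYH11 in calf 4139 of TRT12_H and 0.614 times in calf 4124 of TRT0_H, the extremes, with a median of 0.386. On the log2 scale the TRT0 calves averaged -1.23 ± 0.29, the TRT6 calves -1.32 ± 0.17 and the TRT12 calves -1.34 ± 0.22 (SD, 9 calves a treatment). The differences of -0.088 for TRT6 vs. TRT0, -0.11 for TRT12 vs. TRT0, -0.022 for TRT12 vs. TRT6 and -0.04 for C vs. H had adjusted p of 0.814 by the same permutation tests, exact between treatments. Lane 2 gave averages of -1.18, -1.36 and -1.44 for TRT0, TRT6 and TRT12, and lane 1 gave -1.1, -1.25 and -1.27, with 2 to 5 calves behind each. Lane 3 gave -1.48, -1.55 and -1.33 from 1 or 2 calves each, so its TRT12 average was above its TRT0 average.

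Genes that followed the 8 most closely were looked for among the 13935 other genes tested, by their median r to the 8 genes over the 27 calves. The closest was FLNC, a filamin that cross-links actin, at 0.88 and 577 ± 152 CPM (SD, n = 27), the one gene at or above the median of the 8 genes among themselves. FLNA, the widespread filamin, followed at 0.87, MYL9, the regulatory light chain that MYLK phosphorylates, at 0.86 and the gene ENSBTAG00000005373, to which the name tables used here give no symbol, also at 0.86. The rest of the 10 were SYNM, an intermediate filament partner of desmin, at 0.85, PDLIM3 at 0.83, HSPB6, a small heat shock protein of muscle, at 0.81, TNC, the matrix protein tenascin C, at 0.81, VCL, the anchor protein vinculin, at 0.80 and CALD1, the actin-binding caldesmon, at 0.78. At the opposite end stood 5 genes without a symbol here, with median r of -0.69 to -0.64, led by ENSBTAG00000014031 and ENSBTAG00000012552.

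Other genes of smooth muscle contraction were grouped by role, and 26 of the 38 listed had a symbol in the name tables, which favour highly expressed genes. The 3 genes of the thick filament and its light chains (MYL9, MYL6, MYH10) had a median r of 0.78 to the 8 genes, and the 12 of the thin filament and its anchors 0.72. In contrast, the 10 genes of calcium and kinase signalling, such as RHOA, ROCK1 and ROCK2 of the calcium-sensitising pathway, had a median r of 0.10. MRTFB, the only gene with a symbol in the list of 4 for smooth muscle transcription, had 0.18. So among the listed genes it was the structural ones whose levels lay close to those of the 8 genes, a description for which no test was made.

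Of these 26 genes none was called in the contrasts. At an unadjusted p under 0.05, 4 of 26 (15.4%) passed in TRT12 vs. TRT0, 3 higher and 1 lower, beside 9.37% of all genes tested. In TRT12 vs. TRT6 2 passed (7.69%, beside 3.14% of all genes), and 0 in TRT6 vs. TRT0 and C vs. H. Within parities 4 passed in TRT12_C vs. TRT0_C and 4 in TRT12_C vs. TRT6_C, beside 9.87% and 6.71% of all genes. None passed in the remaining contrasts within treatments and parities. The lowest p in TRT12 vs. TRT0 belonged to RHOA, the small GTPase upstream of the ROCK kinases, with a log2 fold change of 0.26 ± 0.088 (SE) and an adjusted p of 0.421 in edgeR. TPM4, a tropomyosin of non-muscle filaments, had 0.24 ± 0.091 (adjusted p 0.434 in edgeR). The structural genes with the highest counts did not pass in that contrast either. On the log2 scale FLNA was at -0.0053, VCL at -0.071, MYL6 at 0.051 and SYNM at -0.081. Next in level, MYL9 was at -0.034, SYNPO2 at -0.21, CALD1 at -0.024 and ACTN1, an actinin of dense bodies, at 0.13.

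Sequencing lane was tested as a batch that the labels give, and since lane 3 was also the other run, that lane and run cannot be told apart. None of the 8 genes passed between lanes in edgeR, the lowest unadjusted p being 0.155 and adjusted p 0.504 for ACTA2, whereas 2.41% of all genes tested passed at an adjusted p of 0.10 and 15.4% had an unadjusted p under 0.05. Lane accounted for 3.08% of the variance of MYLK and 14.5% of that of ACTA2, with a median of 10.3% over the 8 genes and 8.71% over all genes tested. The mean summed level was 10894 ± 2570 CPM in lane 1, 12193 ± 2050 in lane 2 and 9643 ± 1890 in lane 3 (SD, n = 11, 11 and 5). Of the other 26 smooth muscle genes, 8 (30.8%) had an unadjusted p under 0.05 between lanes, and LMOD1, which nucleates actin filaments, was called between lanes with an adjusted p of 0.0978 in edgeR.

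Markers of the other cell types of the colon wall were set beside the 8 genes by their summed level over the 27 calves, 48 relations in all with p adjusted over them. The summed fibroblast markers, 8 of 8 with a symbol, moved with the contractile genes. This sum, mostly collagens (COL1A1, COL1A2, COL3A1), ran from 8016 to 19798 CPM, and its r with the 8 genes was 0.52 for MYLK to 0.72 for ACTA2, with adjusted permutation p of 0.00288 to 0.0241. The relation was also positive without the 2 farthest calves, 0.50 to 0.62, within lane 1, 0.34 to 0.69, and within lane 2, 0.71 to 0.89. By treatment the sum ran from 10881 to 19798 CPM in TRT0, from 8016 to 17924 in TRT6 and from 8056 to 18572 in TRT12. Taken singly, the collagens COL1A1, COL1A2, COL3A1 and COL6A3 had median r of 0.53 to 0.70 to the 8 genes and the matrix gene FBLN1 0.55. LUM and DCN, proteoglycans of the matrix, had 0.35 and 0.31, and PDGFRA, a receptor of fibroblasts, -0.01. The part of connective tissue in the levels of the 8 genes was not tested.

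Markers of enteric neurons and glia, 3 of 9 with a symbol, summed to 10.1 to 24.7 CPM, and their r with the 8 genes was 0.40 to 0.56, past an adjusted permutation p of 0.05 for 5 genes. That relation was 0.29 to 0.47 without the 2 farthest calves, 0.043 to 0.34 within lane 1 and 0.24 to 0.48 within lane 2. The list rests mainly on UCHL1, a neuronal ubiquitin hydrolase, at 7.61 to 16.8 CPM. Immune markers, PTPRC and CSF1R of 7, summed to 71.7 to 291 CPM and correlated negatively, at -0.53 to -0.35, past the adjusted permutation p of 0.05 for TPM2, MYH11 and MYLK. Without calf 4144 of TRT6_C and calf 4117 of TRT12_H, the farthest on this list, r was still negative for all 8 genes but smaller in size, -0.38 to -0.057. It was -0.67 to -0.40 within lane 1 and -0.38 to 0.027 within lane 2, and by Spearman's rho 0 of the 8 genes passed.

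Epithelial markers, 7 of 10 with a symbol and at 2245 to 3879 CPM in sum, had r of 0.036 to 0.26 with the 8 genes. Endothelial markers (3 of 7, 240 to 445 CPM) had 0.021 to 0.35 and pericyte markers (4 of 4, 295 to 535 CPM) 0.14 to 0.33, and in none of these lists did any of the 8 genes pass. The pericyte genes differed among themselves, with median r to the 8 genes of 0.50 for CSPG4, 0.27 for PDGFRB, 0.20 for NOTCH3 and -0.12 for RGS5. Lists for interstitial cells of Cajal, striated muscle, mesothelium and erythroid cells had no gene with a symbol in the name tables and were not analysed here.

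**Figure D5:**
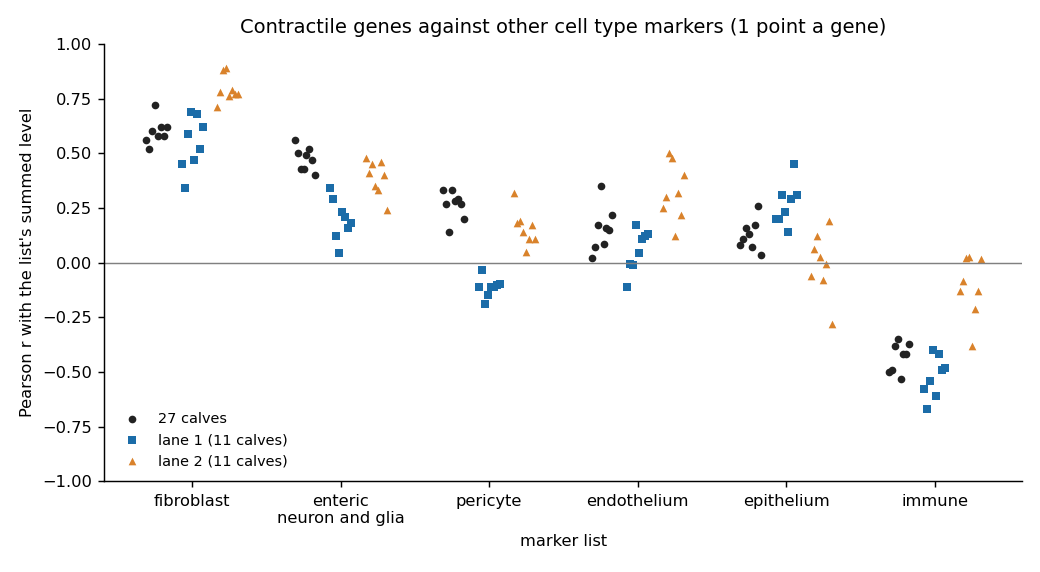
Pearson correlation (vertical axis) of each contractile gene with the summed level of 6 marker lists (horizontal axis), over 27 calves (black), lane 1 (blue) and lane 2 (orange), 1 point a gene. Values for fibroblast markers are 0.52 to 0.72 over all calves, and those for immune markers are the only ones that are all negative over all calves.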

How the data were processed

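The authors deposited raw gene counts as whole numbers, 1 column a calf and without any normalization. They discarded reads failing the chastity filter, aligned the rest to UMD3.1 with TopHat 2.1.1, sorted them with SAMtools 1.4 and counted with HTSeq. The strand setting is not given in the sources used here, so overlapping and antisense genes are uncertain. No promoter, protein or genome sequence was used here.

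CPM was computed over the summed gene counts of a calf. Counts were tested with edgeR 4.0.16 in R 4.3.3 (TMM factors of 0.886 to 1.15, quasi-likelihood test, common biological coefficient of variation 0.222), with Benjamini-Hochberg adjustment over 13943 genes. Treatment and parity were additive for the 4 overall contrasts, and the 9 others and the interaction used a mean for each of the 6 groups. All 27 calves entered each fit. Correlations used log2 CPM with 0.5 counts added. The unadjusted p of single contrasts describes genes and calls none. The tests were run on simulated counts with known fold changes. That checked the computation, and not how small a difference could be detected in these calves.

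Gene symbols came from name tables of the study covering 4044 identifiers, chosen partly by level. The 8 genes and all lists (4 of smooth muscle contraction and those of epithelium, fibroblast, endothelium, pericyte, interstitial cell of Cajal, enteric neuron and glia, immune, striated muscle, mesothelium and erythroid cells) were chosen with earlier results of these data known. The rule for other named genes took the 10 genes most and the 5 least like the 8, and of the smooth muscle lists the 8 with the highest counts and the 3 with the lowest p in TRT12 vs. TRT0, of which 1 is not reported here. Of the 5 least like, 2 are given by identifier. MYH10, ROCK1, ROCK2, MRTFB and LMOD1 are named outside the rule, after their values were seen.

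Alternatives were DESeq2 1.42.0, the likelihood ratio test, totals without TMM factors, the 10 highest genes left out, no filter, lane as a covariate, the compared groups only, and each calf left out. Depth limits low genes: 3 counts correspond to 0.714 to 2.58 CPM, and such limits cover counting error only. Python 3.11.15 with numpy 2.4.6, scipy 1.17.1, pandas 2.3.3 and matplotlib 3.10.9 was used for the other steps.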

Additional observations from a re-analysis of the deposited data

Results flagged for a closer look

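A calf was marked when its gap to the next calf of its group exceeded Dixon's 95% limit for the range of that group. This was looked for in 90 groups of 4, 5 or 9 calves (8 levels and 2 ratios, by treatment and by treatment and parity), and chance alone marks about 1 group in 20. It held for 6 values from 5 calves, and no explanation was tested.

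Calf 4158 of TRT12_C, sequenced in lane 1, stood above the other TRT12 calves in ACTG2 at 3644 CPM, where the next calf had 2780 CPM, and in DES at 2194 CPM, where the next had 1605. Calf 4114 of TRT6_H had TAGLN at 1186 CPM while the other 3 calves of its group were between 718 and 746 CPM. Calf 4128 of TRT12_H had DES at 1605 CPM, and the next calf of its group 1211. The ratio of ACTG2 to ACTA2 counts was 3.03 in calf 4133 of TRT0_C and 2.26 to 2.32 in the other 4 calves of the group. Calf 4140 of TRT6_C had a ratio of DES to MYH11 counts of 0.52, and the other 4 calves of that group 0.342 to 0.383.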

How the results depend on the processing

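Over 15 tests (13 contrasts, the interaction and the lanes), 0 calls of the 8 genes were made under any of 7 other settings or with any of 27 calves left out. The compared groups alone were not fitted for C vs. H, the interaction and the lanes, the lanes had no fit with lane as covariate, and no calf was left out in the test of lanes. Over all genes, DESeq2 called 51 genes in TRT12 vs. TRT0 where edgeR's quasi-likelihood test called 0, and the lanes gave 336 genes in the main test, 625 with DESeq2, 685 with the likelihood ratio test and 820 without a filter. Elsewhere the counts were 0 to 4 under every setting, and leaving out a calf gave 0 or 1.

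Direction was not settled for small values. Of 34 log2 fold changes, 8 values of 230 changed sign under other settings. Without TMM factors TPM2 was at -0.017 in TRT6 vs. TRT0, 0.0078 in TRT12 vs. TRT6 and 0.018 in C vs. H, ACTA2 at 0.0027 in TRT12 vs. TRT6 and MYLK at 0.019 in C vs. H. TPM2 in TRT12 vs. TRT0 was at 0.010 without the 10 highest genes, 0.014 with lane as a covariate and 0.0024 in the compared groups alone. Centred within lanes, the DES to MYH11 ratio differed by 0.00043 in TRT12 vs. TRT6.

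With 1 calf left out, 19 of the 34 changed sign for some calf. In TRT6 vs. TRT0 the ranges were -0.11 to 0.048 for MYH11, -0.059 to 0.14 for ACTG2, -0.077 to 0.14 for TAGLN, -0.071 to 0.089 for TPM2 and -0.089 to 0.026 for ACTA2. In TRT12 vs. TRT0 they were -0.10 to 0.030 for ACTG2, -0.061 to 0.045 for TPM2, -0.0052 to 0.088 for MYLK and -0.11 to 0.00013 for ACTA2. In TRT12 vs. TRT6 they were -0.14 to 0.0075 for MYH11, -0.18 to 0.033 for ACTG2, -0.052 to 0.18 for TAGLN, -0.054 to 0.17 for CNN1, -0.22 to 0.044 for DES, -0.093 to 0.072 for TPM2 and -0.085 to 0.037 for ACTA2. In C vs. H they were -0.15 to 0.0059 for TAGLN, -0.087 to 0.023 for TPM2 and -0.072 to 0.0071 for MYLK. The ACTG2 to ACTA2 ratio ran from -0.060 to 0.026 in TRT12 vs. TRT6 and -0.045 to 0.0044 in C vs. H, and the DES to MYH11 ratio from -0.069 to 0.025 and -0.079 to 0.012. ACTA2 in TRT0_C vs. TRT0_H kept its sign, at -0.58 to -0.38 over all settings and calves left out. The cause of these changes of sign was not tested.

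The median r between the 8 genes was 0.86 or 0.87 under 5 other settings, of which the one without calf 4117 and the one without the 10 highest genes were chosen after seeing the data. Leaving the 10 highest genes out of the totals raised the mean level of MYH11 from 3476 to 5587 CPM. No paired analysis was possible because the replicate numbers only name calves in order. Groups of 4 or 5 calves leave wide intervals, so small differences were not detectable.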
